A study of Mus musculus with 13 samples.

Results

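The Bcl2 family of apoptosis regulators was followed across Ptch1 medulloblastomas and 2 normal tissues of the developing mouse hindbrain. Members were the 10 genes Bcl2, Bcl2l1, Mcl1, Bax, Bak1, Bcl2l11, Bbc3, Pmaip1, Bid and Bad, and every probe set carrying one of these symbols in the platform annotation was taken. Such probe sets were found for 9 of the 10, 29 probe sets in all, out of 18193 genes and 45037 probe sets that are not controls. Bax was not analysed here. Of the 29 probe sets, 21 exceeded the median of their own array on at least 3 of 13 arrays and were tested. They belong to 8 genes, since neither probe set of Bak1 passed.

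The tumours were 6 primary medulloblastomas (Ptch1 MB) with the genotype Ptch1(+/-), Ptch1 being the receptor that restrains the hedgehog pathway. They were set against 3 samples of granule neuron precursor cells of the wild-type cerebellum at postnatal day 7 (P7 GNPC) and 4 samples of wild-type embryonic dorsal brainstem (E16.5 DBS), all untreated and each from a different mouse. The age of the tumour-bearing mice was not given in the labels used here, and between the normal groups age and tissue differ together. Linear intensities from Affymetrix mouse arrays were available, 1 array per sample, so the number of arrays limits the precision.

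Proteins of the Bcl2 family decide whether the outer mitochondrial membrane is permeabilised, the step that releases cytochrome c and starts caspase activation. Bcl2, Bcl2l1 (Bcl-xL) and Mcl1 are the anti-apoptotic guardians, Bax and Bak1 form the pores, and the BH3-only proteins Bcl2l11 (Bim), Bbc3 (Puma), Pmaip1 (Noxa), Bid and Bad either bind the guardians or activate the pore formers. In the developing cerebellum and brainstem this pathway removes surplus precursors and neurons, and many of its members are also controlled at the protein level, which arrays do not measure.

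The tissues differed widely. The mean log2(intensity + 18) of 9 cell cycle genes was 12.1 to 12.55 in tumours, 10.62 to 11.13 in GNPC and 8.47 to 8.85 in DBS. That of 8 granule precursor markers was 10.96 to 11.1 in tumours, 10.2 to 10.48 in GNPC and 7.6 to 7.85 in DBS. The 8 did not all differ alike between tumours and GNPC. Of them 3, Atoh1 among them, were called higher in tumours and 1, Mfap4, lower (log2 difference -1.99), and Zic1 differed by -0.03. Markers of differentiated neurons were at 9.06 to 10.85 in tumours, 12.23 to 12.42 in GNPC and 12.04 to 12.12 in DBS. Purkinje cell markers, which granule precursors should lack, were at 6.41 to 10.65 in tumours, 12.29 to 12.62 in GNPC and 9.01 to 9.45 in DBS. Brainstem Hox and transmitter genes were at 5.85 to 6.53 in tumours, 6.85 to 7.01 in GNPC and 11.85 to 12.14 in DBS. Microglia and macrophage markers were at 8.94 to 10.3 in tumours, 8.44 to 8.69 in GNPC and 8.21 to 8.34 in DBS. Between tumours and GNPC, 4 of 6 markers of astrocytes and Bergmann glia, 4 of 5 of oligodendrocytes, 3 of 5 of endothelium and 5 of 6 of meninges and fibroblasts were lower in tumours and 0 higher. Between tumours and DBS 2, 1, 2 and 4 of them were lower, and 2 astrocyte markers higher. Of 7 lymphocyte markers on the array 1 was bright enough to be tested, and it was not called. The log2 ratio of 3′ to 5′ control probe sets, a sign of RNA breakdown, was highest in DBS 2 (2.37 for Gapdh and 2.49 for beta-actin). It was at most 1.74 and 1.44 in any tumour and 1.41 and 1.11 in any GNPC array. For beta-actin DBS 3 and DBS 4, both at 1.74, were also above every tumour and GNPC array. The beta-actin means were 1.79 in DBS, 1.28 in tumours and 0.98 in GNPC, so leaving out DBS 2 does not make the groups alike in this ratio. Ptch1 itself, on its brightest probe set, ranged over 3453.7 to 11575.0 in tumours, 5563.3 to 6972.4 in GNPC and 5569.3 to 6133.5 in DBS; where the probes lie relative to the disrupted exons was not examined, so this does not check the genotype. The part that these differences in cell makeup and RNA quality play in the results was not tested. In bulk tissue, fewer cells of a type and less RNA per cell cannot be told apart.

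Differences are given on the log2(intensity + 18) scale, which understates the change of dim probe sets, with the standard error of limma's fit and an adjusted p (Benjamini-Hochberg over all 25894 probe sets tested). A probe set was called at an adjusted p under 0.05 and a difference of at least 1, that is 2-fold. "Higher", "rose" and "fell" refer to such calls. The 3 comparisons share arrays pairwise, so their values are set side by side and not counted as separate evidence.

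Relative to DBS, Bcl2 was called lower on 2 of its 5 tested probe sets in tumours and on 2 in GNPC, and Bcl2l11 higher on 2 of its 4 in each. Mcl1 was called higher than in DBS on 2 of its 6 tested probe sets in tumours and on 1 in GNPC, and Pmaip1, with 1 probe set, in tumours. The differences of these probe sets were 2.06- to 3.01-fold, and the others of the same genes were short of 2-fold. Between tumours and GNPC only Pmaip1 was called. Of the 21 member probe sets, 1 was called between tumours and GNPC, higher in tumours, which is 4.76% of the members against 18.3% of all probe sets tested (5.62% higher and 12.6% lower). Between tumours and DBS 5 were higher and 2 lower, 33.3% against a background of 34.2% (16.0% higher and 18.2% lower). Between GNPC and DBS 3 were higher and 2 lower, 23.8% against 17.5% (9.55% higher and 7.94% lower). With no fold minimum, 3 member probe sets passed the adjusted p between tumours and GNPC, where 43.8% of all did, 14 between tumours and DBS, where 66.9% did, and 9 between GNPC and DBS, where 41.1% did. Against DBS the share called is therefore near the background in tumours, and the family as a whole did not stand apart from other probe sets there.

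**Figure D1:**
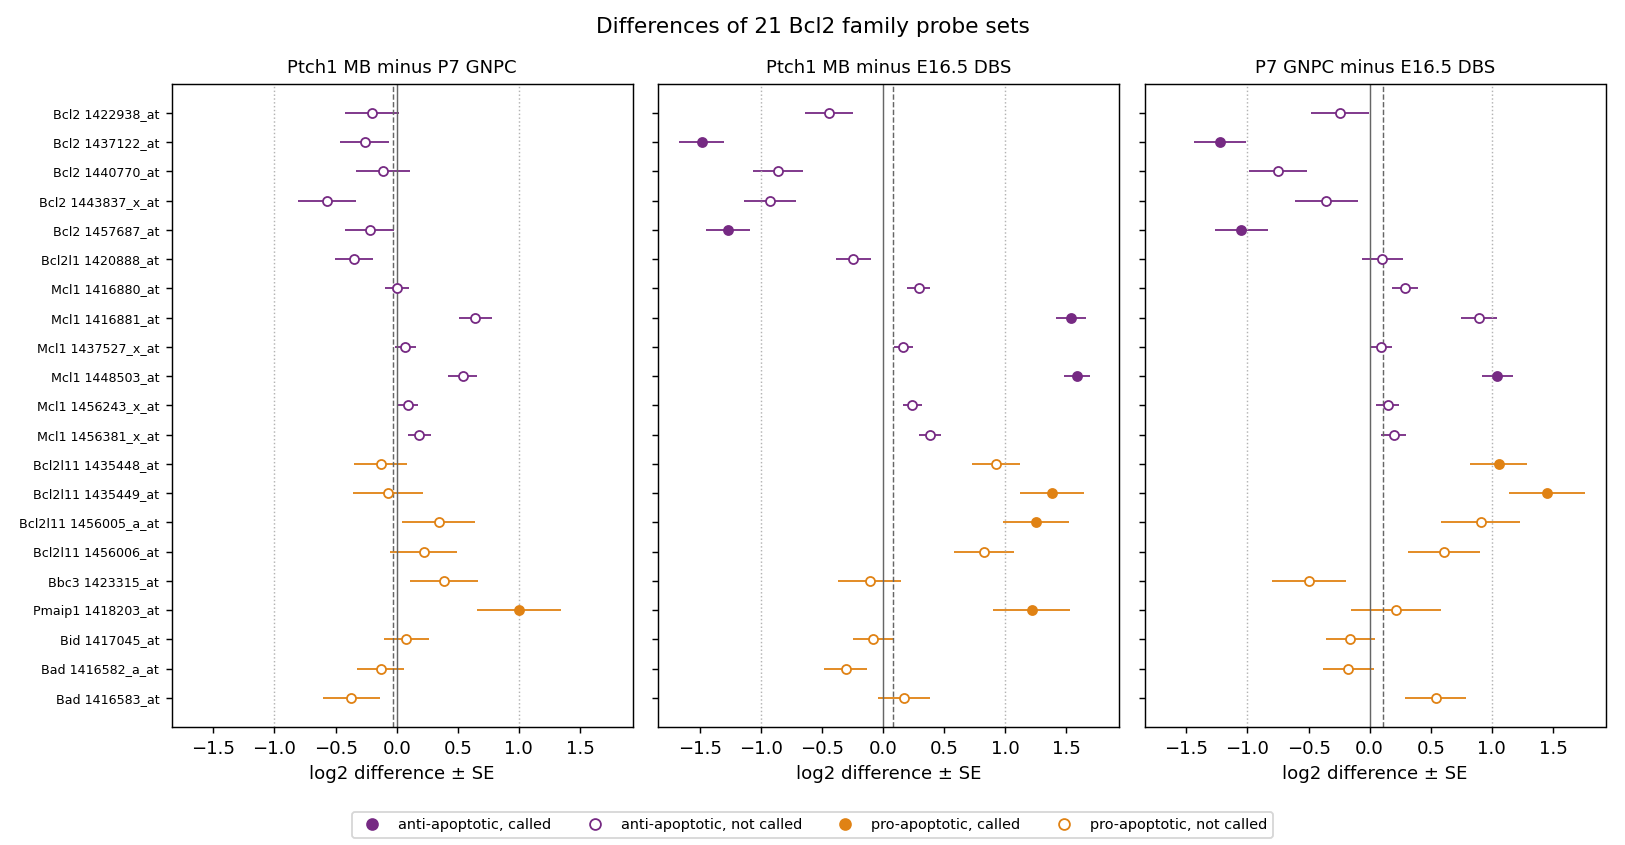
Log2 differences ± SE of the 21 member probe sets (rows) in the 3 comparisons (panels), on the log2(intensity + 18) scale; filled points were called, the dashed line is the median of all probe sets tested, and the dotted lines mark a 2-fold difference. In the tumour and GNPC panels against DBS the Bcl2 probe sets lie left of 0 and those of Mcl1 and Bcl2l11 right of it, whereas between tumours and GNPC only Pmaip1 reaches the 2-fold line.

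Set against each other, the anti-apoptotic members (12 tested probe sets of Bcl2, Bcl2l1 and Mcl1) had a median of -0.05 in log2 difference between tumours and GNPC, and the pro-apoptotic members (9 tested probe sets, all of BH3-only genes) one of 0.08. Over all probe sets tested it was -0.03. Between tumours and DBS the medians were -0.04 for anti-apoptotic and 0.83 for pro-apoptotic probe sets, with 0.08 over all. Between GNPC and DBS they were 0.10 and 0.54, with 0.11 over all. Bcl2l11 supplies 4 of the 9 pro-apoptotic probe sets. With 1 probe set per gene, the brightest, the pro-apoptotic median over 5 genes was -0.08 for tumours against DBS and -0.16 for GNPC against DBS, so the positive medians rested on Bcl2l11. The sign of the anti-apoptotic median changed when every array was scaled to the same median intensity. It was then 0.19 for tumours against GNPC, 0.085 for tumours against DBS and -0.019 for GNPC against DBS.

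That scaling moved the median of all probe sets to 0.20 in each of the tumour comparisons and to 0.00 for GNPC against DBS. Calls over all probe sets between tumours and GNPC were 1454 higher and 3273 lower as deposited, and 2487 higher and 2508 lower at equal array medians. No called difference of a member probe set changed its sign under this scaling or under quantile normalisation.

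Bcl2, the founding anti-apoptotic member, encoded on chromosome 1 (106538176 to 106714290, GRCm38.p6), fell on 2 of its 5 probe sets in both cerebellar groups relative to DBS. Its brightest probe set, 1457687_at, ranged over 499.5 to 907.7 in the tumours with a median of 735.9. It read 709.2, 888.0 and 842.3 in GNPC, and 1587.0, 2278.1, 1366.7 and 1672.6 in DBS. Every DBS array was above every tumour and GNPC array, and the tumours overlapped GNPC. The log2 difference was -1.27 ± 0.18 (SE) between tumours and DBS, 2.41-fold lower (adjusted p = 1.98e-05), and -1.05 ± 0.22 between GNPC and DBS (adjusted p = 0.0014). Between tumours and GNPC it was -0.22 ± 0.20 (adjusted p = 0.398).

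The probe set 1437122_at of Bcl2 showed the same order of groups. It ranged over 76.7 to 132.1 in the tumours with a median of 105.8, and read 132.7, 172.2 and 88.7 in GNPC and 359.7, 302.3, 308.6 and 317.4 in DBS, again with no overlap between DBS and the other groups. It was 2.8-fold lower in tumours than in DBS (-1.49 ± 0.18, adjusted p = 4.03e-06) and also lower in GNPC than in DBS (-1.22, adjusted p = 0.000428). The other 3 Bcl2 probe sets pointed the same way between tumours and DBS without being called: 1440770_at differed by -0.86 (adjusted p = 0.00158), 1443837_x_at by -0.92 (adjusted p = 0.00141) and 1422938_at by -0.44 (adjusted p = 0.0625). The second of these was called at a pseudocount of 1 and without tumour 1, tumour 3 or DBS 4 (-1.02 to -1.05). The mean over the 5 probe sets differed by -0.997 between tumours and DBS (adjusted p = 2.37e-05) and by -0.72 between GNPC and DBS (adjusted p = 0.00357), both short of 2-fold. In GNPC the 3 other probe sets were 1.18- to 1.68-fold below DBS.

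By group means the order was thus DBS, GNPC and tumours on all 5 probe sets. No Bcl2 probe set was called between tumours and GNPC. The widest difference was on 1443837_x_at, -0.57 ± 0.23 (adjusted p = 0.0612, 95% interval -1.07 to -0.07), with an adjusted p of 0.0237 to 0.158 when single samples were left out. Without DBS 2, the array with the highest 3′ to 5′ ratios, 1457687_at differed by -1.13 (adjusted p = 0.000113) and 1437122_at by -1.51 between tumours and DBS, both still called. Between GNPC and DBS, 1457687_at was short of 2-fold without DBS 2 (-0.91) or without GNPC 1 (-0.96). The probe sets whose values ran most like Bcl2 1457687_at over the 13 samples were those of 0610010F05Rik (Pearson r = 0.973), Acbd5 (0.973) and Rapgef2 (0.969), samples that share their 3 tissues.

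Mcl1, a short-lived anti-apoptotic protein encoded on chromosome 3 (95656944 to 95663179), moved in the opposite direction to Bcl2. Its probe set 1448503_at ranged over 3443.0 to 4203.5 in the tumours with a median of 3907.3. It read 2181.0, 2939.5 and 2856.5 in GNPC, and 1161.0, 1437.2, 1158.5 and 1334.4 in DBS. The 3 groups did not overlap, with tumours highest and DBS lowest. The tumours were 3.01-fold above DBS (1.59 ± 0.11, adjusted p = 8.46e-09), and GNPC were above DBS by 1.05 ± 0.13 (adjusted p = 1.97e-05), a call lost without GNPC 2 (0.97) or GNPC 3 (0.99) and at equal array medians (0.93). Between tumours and GNPC the difference of 0.54 ± 0.12 had an adjusted p of 0.00195 but was short of 2-fold.

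A second Mcl1 probe set, 1416881_at, repeated this order. It ranged over 531.4 to 657.6 in the tumours with a median of 617.8, and read 387.0, 350.0 and 412.6 in GNPC and 214.2, 156.3, 226.3 and 200.7 in DBS. It was 2.9-fold higher in tumours than in DBS (1.54 ± 0.12, adjusted p = 4.24e-08), and differed by 0.64 between tumours and GNPC (adjusted p = 0.00135) and by 0.89 between GNPC and DBS (adjusted p = 0.000228), neither 2-fold. Across the 13 arrays both probe sets ran together (Pearson r = 0.942, a description).

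The remaining 4 Mcl1 probe sets moved far less. Between tumours and DBS they differed by 0.17 to 0.38, with adjusted p-values of 0.00116 to 0.0654, and between tumours and GNPC by 0.00 to 0.19. The probe sets of Mcl1 therefore disagreed on the size of the difference, though not on its sign against DBS, and their mean differed by 0.70 between tumours and DBS (adjusted p = 4.76e-07), which is not called. Which transcript ends each of them reads was not examined.

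Bcl2l1, the gene of Bcl-xL, was read by 4 probe sets, of which 1420888_at passed the filter. It ranged over 650.0 to 1038.3 in the tumours with a median of 860.4, and read 1091.1, 1097.4 and 1047.3 in GNPC and 1102.6, 842.3, 963.6 and 1124.4 in DBS. All tumours were below all GNPC arrays, but the difference of -0.35 ± 0.15 was not called (adjusted p = 0.0815, 95% interval -0.68 to -0.02) and was -0.11 at equal array medians. Tumours overlapped DBS, with a difference of -0.24 (adjusted p = 0.139, 95% interval -0.55 to 0.06). The closest patterns to it over the 13 samples were those of Nudt7 (Pearson r = 0.907), Cacnb4 (0.881) and Fbxo44 (0.876). The 3 other Bcl2l1 probe sets read at most 81.2 on any array.

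**Figure D2:**
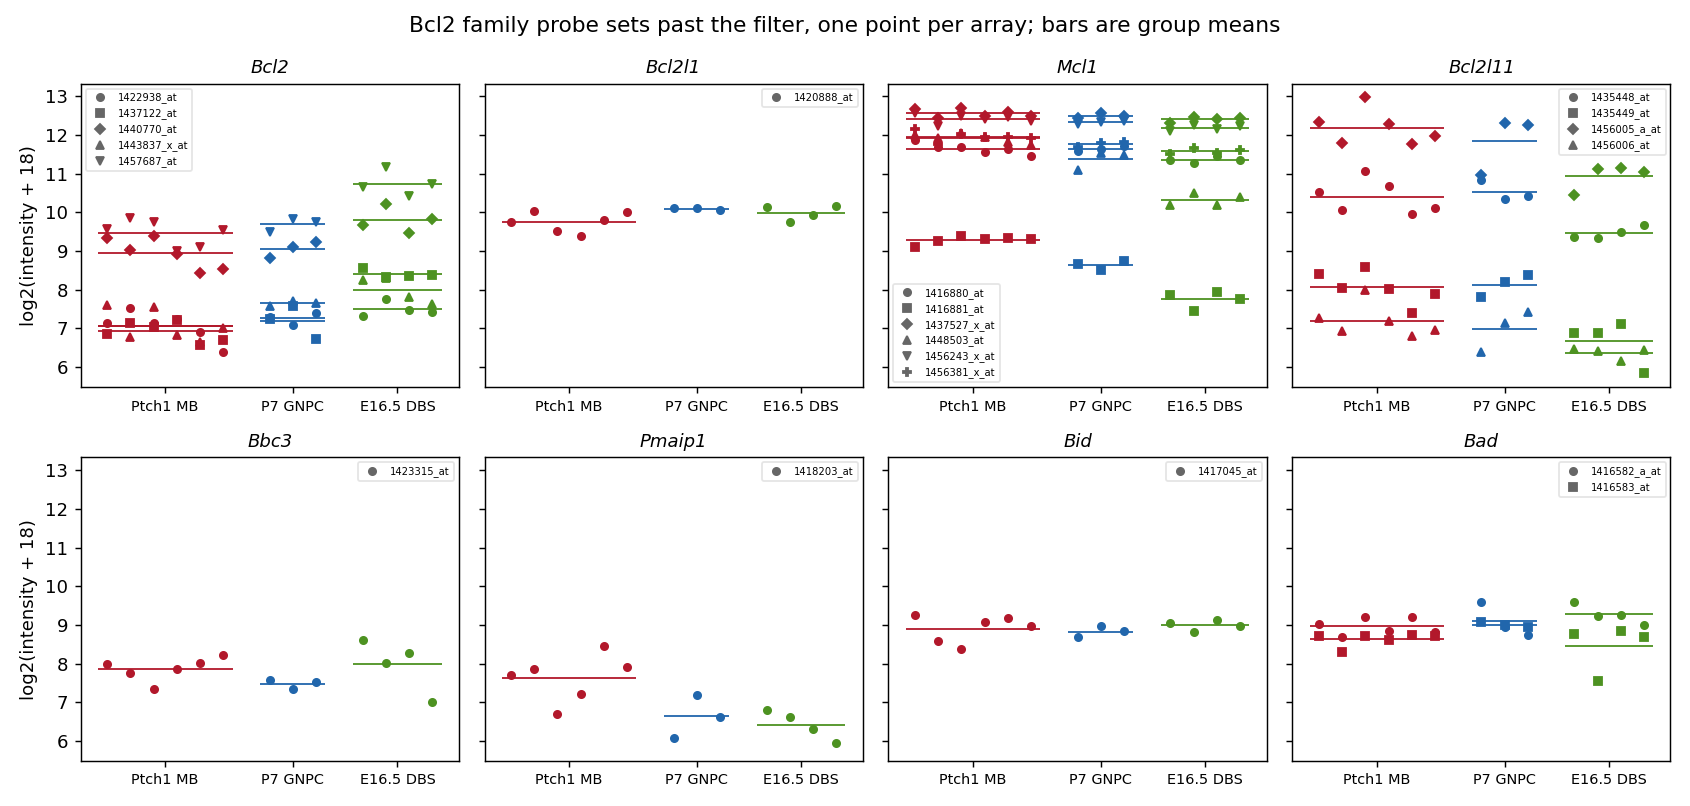
Log2(intensity + 18) of each tested member probe set (marker shape) on each array (points) of the tumours, GNPC and DBS, with group means as bars; levels of different probe sets cannot be compared with each other. Bcl2 1457687_at is highest on the 4 DBS arrays, Mcl1 1448503_at separates all 3 groups, and Pmaip1 is spread over 3.88-fold within the tumours.

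Of the pore-forming effectors, Bak1 read among the dim probe sets of the arrays. Its probe set 1418991_at read 43.0 to 85.7 in tumours, 47.3 to 110.4 in GNPC and 58.1 to 114.2 in DBS, and 1425716_s_at read at most 28.1 on any array. The first exceeded the array's median on 1 of 13 arrays and the second on 0, so neither was tested, and a low intensity does not show that the transcript was absent.

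Bcl2l11, whose product Bim binds all anti-apoptotic members, lies on chromosome 2 (128126038 to 128162547) and was called higher on 2 of its 4 tested probe sets in each cerebellar group than in DBS. The brightest probe set, 1456005_a_at, ranged over 3470.7 to 8038.0 in the tumours with a median of 4506.4. It read 1996.4, 5039.4 and 4895.0 in GNPC, and 1393.7, 2197.1, 2248.5 and 2082.4 in DBS. All 6 tumours were above all DBS arrays, while GNPC overlapped both. Tumours were 2.38-fold above DBS (1.25 ± 0.27, adjusted p = 0.000872), and differed from GNPC by 0.34 ± 0.30 (adjusted p = 0.375). GNPC differed from DBS by 0.91 (adjusted p = 0.0353), and were called without GNPC 1, the lowest of them (1.34).

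On 1435449_at the tumours ranged over 150.8 to 367.1 with a median of 245.1, GNPC read 208.8, 274.8 and 312.7, and DBS read 100.8, 99.2, 120.6 and 39.2. Tumours and GNPC overlapped and both were above DBS throughout. The difference was 1.38 ± 0.26 between tumours and DBS, 2.6-fold (adjusted p = 0.000263), and 1.45 ± 0.31 between GNPC and DBS (adjusted p = 0.00179). On 1435448_at GNPC were called above DBS (1.06 ± 0.23, adjusted p = 0.00239) and the tumours just short of it (0.92 ± 0.20, adjusted p = 0.000767), although tumours and GNPC overlapped. At equal array medians this was turned round, with tumours called (1.05) and GNPC not (0.94), and GNPC were not called without GNPC 1 (0.90) either.

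All tumours stood above all DBS arrays on the 4 tested probe sets of Bcl2l11, whereas GNPC overlapped DBS on 1456005_a_at and 1456006_at. How many of all probe sets separate tumours from DBS was not counted, so it is not known whether this is unusual. The 66.9% of them that passed the adjusted p, in either direction, is a different measure. No Bcl2l11 probe set was called between tumours and GNPC, with adjusted p-values of 0.375 to 0.868. The mean over the 4 differed by 1.10 between tumours and DBS (adjusted p = 0.000165) and by 1.005 between GNPC and DBS (adjusted p = 0.00303), both called. The weakest of them, 1456006_at, differed by 0.83 (adjusted p = 0.00824). It reached 53.0 to 71.0 in DBS and so passed the filter mainly through the arrays where it was high. Tumour 3 had the highest value on all 5 Bcl2l11 probe sets. Without DBS 2, tumours exceeded DBS by 1.31 on 1456005_a_at (adjusted p = 0.00213).

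Promoter windows of Bcl2, Mcl1 and Bcl2l11 are shown because these members differed from DBS in opposite directions. Each runs from 250 bases before to 50 after an annotated start (RefSeq, GRCm38.p6), 5′ to 3′ on the gene's strand, with matches to 5 short motifs in capitals. The motifs, spelled out after the sequences, were sought on both strands, and matches to different motifs did not overlap.
Bcl2, chr1:106714241-106714540, minus strand: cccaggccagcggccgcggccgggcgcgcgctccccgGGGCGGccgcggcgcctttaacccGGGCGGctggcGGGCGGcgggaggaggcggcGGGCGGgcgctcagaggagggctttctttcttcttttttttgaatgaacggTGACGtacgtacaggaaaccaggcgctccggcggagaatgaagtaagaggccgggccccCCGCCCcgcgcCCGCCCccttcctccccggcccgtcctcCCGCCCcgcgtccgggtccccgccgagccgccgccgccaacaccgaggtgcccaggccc
Mcl1, chr3:95658471-95658770, plus strand: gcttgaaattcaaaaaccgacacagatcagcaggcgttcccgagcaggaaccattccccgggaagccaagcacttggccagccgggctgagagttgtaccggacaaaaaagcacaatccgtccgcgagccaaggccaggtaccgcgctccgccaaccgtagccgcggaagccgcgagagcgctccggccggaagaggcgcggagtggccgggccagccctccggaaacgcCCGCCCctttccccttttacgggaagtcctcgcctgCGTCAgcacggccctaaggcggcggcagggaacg
Bcl2l11 window 1, chr2:128125788-128126087, plus strand: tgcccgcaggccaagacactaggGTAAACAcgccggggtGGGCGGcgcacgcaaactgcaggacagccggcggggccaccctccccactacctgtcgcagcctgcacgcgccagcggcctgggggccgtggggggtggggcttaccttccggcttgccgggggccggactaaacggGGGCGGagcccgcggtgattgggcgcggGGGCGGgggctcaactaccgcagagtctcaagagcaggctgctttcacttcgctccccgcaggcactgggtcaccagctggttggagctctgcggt
Bcl2l11 window 2, chr2:128127325-128127624, plus strand: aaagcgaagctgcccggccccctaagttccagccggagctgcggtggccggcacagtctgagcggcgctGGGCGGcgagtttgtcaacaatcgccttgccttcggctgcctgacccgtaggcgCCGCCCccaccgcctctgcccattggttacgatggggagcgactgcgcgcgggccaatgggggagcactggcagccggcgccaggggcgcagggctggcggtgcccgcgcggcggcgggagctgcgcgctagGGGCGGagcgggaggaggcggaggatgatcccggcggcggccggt
The Bcl2 window had 76.0% G and C and held 7 copies of the GC box (GGGCGG), a motif present in 35.7% of all 32851 promoters of this length. It also held 1 CRE core motif at -107 from the start, which the Mcl1 window held at 17 beside 1 GC box. That motif (TGACG) was present in 20.8% of promoters. The first Bcl2l11 window held a FOXO motif at -227 on the opposite strand, beside 3 GC boxes, and the second held 3 GC boxes. The FOXO motif searched (TGTTTAC) was present in 3.65% of promoters. The core motif of GLI factors (ACCACCC), the transcription factors of the hedgehog pathway, was present in 4.61% of promoters and had no match in these 4 windows. The same was true of the E-box, spelled CACGTG and present in 7.15%. A match describes letters only and does not show a bound site. Windows were found for 9 of the 10 members, Pmaip1 being the exception.

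Pmaip1, whose product Noxa neutralises Mcl1, was the member called between tumours and GNPC. Its probe set 1418203_at read 191.4, 211.9, 85.5, 129.1, 331.9 and 220.4 in the tumours. It read 49.9, 128.4 and 79.9 in GNPC, and 93.9, 79.9, 61.7 and 43.1 in DBS. The 5 highest values were all tumours, but tumour 3 lay within the range of both normal groups. The difference from GNPC was 1.002 ± 0.34 (adjusted p = 0.0276), at the 2-fold limit, and that from DBS was 1.22 ± 0.31, 2.32-fold (adjusted p = 0.00303), short of the limit at a pseudocount of 64 (0.90). An exact two-sided permutation test over the 84 splits of tumours and GNPC gave p = 0.0595 (unadjusted).

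The call between tumours and GNPC was fragile. It was lost without GNPC 1 (0.73, adjusted p = 0.16), GNPC 3 (0.99), or any of tumours 1, 2, 5 and 6 (0.84 to 0.99), and at a pseudocount of 64 (0.75). The probe set exceeded its own array's median on 6 of 13 arrays, 5 of them tumours, so it was tested mainly because it is higher in tumours. The microglia and macrophage markers were also higher in tumours, 7 of 9 called in each tumour comparison, with summed intensities of 5468.5 to 13582.6 in tumours, 5162.5 to 6262.7 in GNPC and 5110.9 to 5539.3 in DBS; their part in the Pmaip1 result was not tested. GNPC and DBS did not differ beyond their spread (0.21, adjusted p = 0.674).

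The other BH3-only members showed no called difference. Bbc3, a target of p53, ranged over 143.7 to 281.2 in tumours, 144.7 to 171.5 in GNPC and 110.0 to 371.8 in DBS. It differed by 0.39 between tumours and GNPC (adjusted p = 0.282, 95% interval -0.21 to 0.99) and by -0.11 between tumours and DBS (adjusted p = 0.716, 95% interval -0.66 to 0.44). These intervals admit differences of up to nearly 2-fold in tumours over GNPC, so equality was not shown.

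Bid, which links death receptors to mitochondria, ranged over 314.5 to 590.5 in tumours, 390.6 to 483.7 in GNPC and 428.6 to 536.8 in DBS on 1417045_at. The differences were 0.08 between tumours and GNPC (adjusted p = 0.764) and -0.08 between tumours and DBS (adjusted p = 0.687, 95% interval -0.44 to 0.28). Its other 2 probe sets did not pass the filter. Bad, which binds Bcl2 and Bcl-xL when it is dephosphorylated, had 2 tested probe sets that did not run together (Pearson r = 0.11 over 13 arrays). On 1416583_at the tumours, at 294.6 to 406.2, all lay below GNPC at 470.6 to 518.9, but the difference of -0.37 had an adjusted p of 0.211. That p was 0.0304 to 0.379 when single samples were left out, lowest without DBS 2, which read 169.7. On 1416582_a_at the difference between tumours and GNPC was -0.13 (adjusted p = 0.619).

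Because Bcl2l11 and Bcl2 differed from DBS in opposite directions, their ratio within an array separated DBS from the rest. The log2 ratio of the brightest probe sets, 1456005_a_at over 1457687_at, averaged 2.72 ± 0.50 in tumours (SD, n = 6), 2.16 ± 0.59 in GNPC (SD, n = 3) and 0.20 ± 0.40 in DBS (SD, n = 4). It was 1.94 to 3.28 in tumours and 1.47 to 2.51 in GNPC, which overlapped, against -0.19 to 0.71 in DBS. The absolute size of such a ratio has no meaning, since 2 probe sets differ in brightness, but its difference between groups does not depend on array scaling apart from the pseudocount. The tumours exceeded GNPC by 0.56, about 1 SD, and exceeded DBS by 2.52, and GNPC exceeded DBS by 1.96.

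The ratio of Mcl1 to Bcl2, from the brightest probe set of each, averaged 3.10 ± 0.35 in tumours, 2.81 ± 0.12 in GNPC and 1.67 ± 0.28 in DBS. The tumours, at 2.60 to 3.51, overlapped GNPC and lay above every DBS array. Relative to Bcl2, then, the readings of both an anti-apoptotic and a pro-apoptotic member were higher on every tumour and GNPC array than on any DBS array. The Mcl1 probe set used, 1437527_x_at, itself differed from DBS by 0.17 in tumours and 0.09 in GNPC, neither called. The ratio of Mcl1 to Bcl2 therefore mostly repeats the difference of Bcl2. No test was made, as the ratios were formed with the differences of their parts known.

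**Figure D3:**
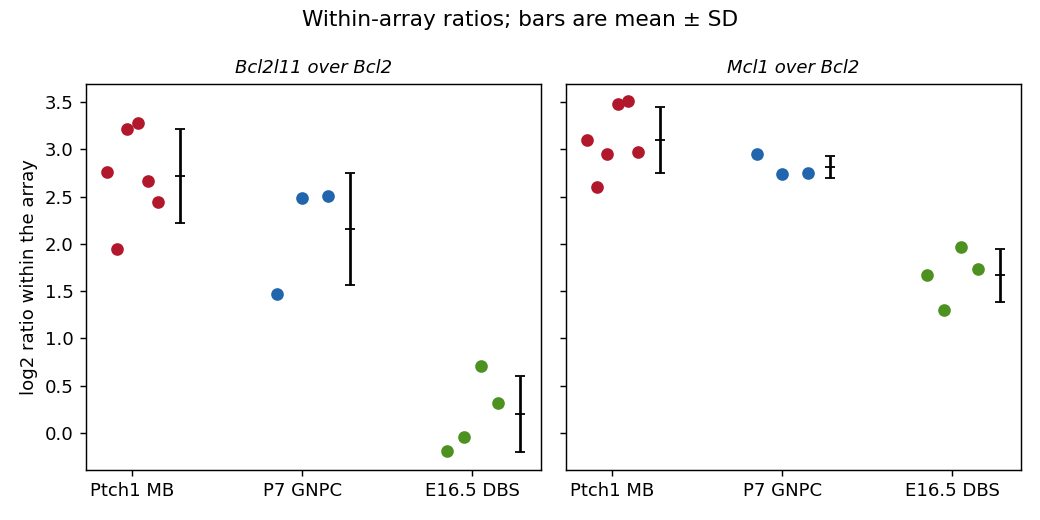
Log2 ratio within each array (points) of Bcl2l11 over Bcl2 (left) and Mcl1 over Bcl2 (right) in tumours, GNPC and DBS; bars are mean ± SD. The 4 DBS arrays lie below all others in both panels (0.20 ± 0.40 and 1.67 ± 0.28), and tumours overlap GNPC.

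The wider pathway was followed with 8 gene lists, using for each gene its brightest probe set. Of 5 further pro-apoptotic relatives, 3 were tested: 2 were higher in tumours than in GNPC and 0 lower, and 2 were higher than in DBS and 0 lower. Their median log2 difference was 1.79 against GNPC and 1.30 against DBS, with -0.03 and 0.08 over all probe sets. The largest was Bok, a Bax-like pore former, which ranged over 2486.7 to 3382.9 in tumours with a median of 3247.3, and read 820.1, 963.9 and 810.9 in GNPC and 1075.1, 786.6, 888.3 and 683.1 in DBS. The lowest tumour was above every normal sample. Bok was 3.52-fold higher than in GNPC (1.82 ± 0.14, adjusted p = 5.31e-07) and 3.58-fold higher than in DBS (1.84 ± 0.13, adjusted p = 1.29e-08), and GNPC differed from DBS by 0.03 (adjusted p = 0.908).

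Hrk, a BH3-only gene active in neurons, was higher in tumours than in GNPC. It ranged over 358.7 to 724.7 in tumours with a median of 518.5, and read 155.9, 150.7 and 101.9 in GNPC and 347.0, 270.2, 359.5 and 275.7 in DBS. All tumours were above all GNPC arrays (1.79 ± 0.20, adjusted p = 8.05e-06), whereas the difference from DBS, 0.68, was not called (adjusted p = 0.00408). A second Hrk probe set, 1450366_at, was also called against GNPC (1.28, adjusted p = 0.000967). Bmf, a BH3-only gene whose product is tethered to the cytoskeleton, was higher in tumours than in DBS (1.30, adjusted p = 2.58e-06), at 325.3 to 546.6 in tumours, 314.5 to 331.2 in GNPC and 123.0 to 178.8 in DBS, and was not called against GNPC (0.24, adjusted p = 0.255).

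Among 6 tested genes of the apoptosome and caspases, 1 was higher and 0 lower in tumours in each comparison, the initiator caspase Casp2. It ranged over 4012.2 to 5075.9 in tumours, 1953.6 to 2264.5 in GNPC and 870.2 to 1130.6 in DBS, with no overlap. Casp2 was higher by 1.14 against GNPC (adjusted p = 3.55e-06) and by 2.24 against DBS (4.73-fold, adjusted p = 1.92e-10). The list's median was 0.04 against GNPC and 0.19 against DBS. Casp9, the caspase of the apoptosome, differed by -0.80 against GNPC (adjusted p = 0.000784), and Apaf1, its scaffold, by 0.58 (adjusted p = 0.00991), neither 2-fold.

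Among 10 tested regulators of member transcripts or proteins, Fbxw7 was the only one called between tumours and GNPC and was lower there. It encodes the substrate receptor of a ubiquitin ligase that marks Mcl1 protein for degradation. It ranged over 854.0 to 1117.8 in tumours with a median of 1013.2, 2817.3 to 3327.3 in GNPC and 2488.2 to 3243.2 in DBS. All tumours were below both normal groups. Fbxw7 differed by -1.58 against GNPC (2.99-fold lower, adjusted p = 4.69e-07) and by -1.46 against DBS (adjusted p = 2.62e-08). A second Fbxw7 probe set, 1424986_s_at, was called in the same direction (-2.03 and -1.21). The list's median was 0.13 against GNPC and 0.36 against DBS, where 1 other gene was called, Tspo, the mitochondrial translocator protein. Tspo was higher by 1.55 (adjusted p = 3.97e-05), with tumour 2 at 610.5 against a median of 262.6 over the tumours, and its other 2 probe sets were called against GNPC too (1.32 and 1.28). Its brightest probe set read 64.3 to 108.8 in DBS. Microglia and macrophage markers were also higher in tumours, 7 of 9 called in each tumour comparison. Their part in the Tspo result was not tested. Markers of differentiated neurons were mostly lower in tumours, 7 of 9 called in each comparison. Their summed intensities were 13684.4 to 33114.9 in tumours, 56150.8 to 60526.5 in GNPC and 81973.3 to 89771.7 in DBS. Against DBS 1 of the 9, Gabra6, was called higher in tumours (3.75, adjusted p = 0.00329). Tumours were also lower than GNPC in most markers of Purkinje cells, astrocytes, oligodendrocytes, endothelium and meninges. Against DBS 3 Purkinje cell markers were called lower and 1 higher, and 2 astrocyte markers lower and 2 higher. There 1 of 5 oligodendrocyte, 2 of 5 endothelial and 4 of 6 meningeal markers were called lower. The part of all these cells in the Fbxw7 result was not tested.

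None of 3 other Bcl2-like genes, 7 mitochondrial death factors, 4 inhibitors of apoptosis and 5 genes of death receptor signalling was called there, and the 1 tested anti-apoptotic relative, Bcl2l2, was not called either (-0.27, adjusted p = 0.0911). Their medians lay between -0.27 and 0.25. In limma's fit 2 of the 3, 3 of the 7, 0 of the 4 and 2 of the 5 had an unadjusted p under 0.05, as did Bcl2l2. Of all 25894 probe sets tested, 13207 did. Against DBS, Bcl2l13, a Bcl2-like protein of the outer mitochondrial membrane, was higher by 1.32 (adjusted p = 2.27e-07) and Bnip3, a hypoxia-induced mitophagy receptor, fell by 1.84 (adjusted p = 6.03e-08). Endog, a mitochondrial nuclease, fell by 1.15 (adjusted p = 8.35e-06), a call lost without DBS 4 (-0.999) and not shared by its other probe set (-0.73). The 4 tested inhibitors of apoptosis were Xiap, Birc2, Birc3 and Birc6, and Birc5 was not on the list. Neither these nor the 5 tested genes of death receptor signalling were called against DBS in limma's fit. There 2 of 4 and 3 of 5 had an unadjusted p under 0.05, as did 18016 of all 25894 probe sets tested.

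**Figure D4:**
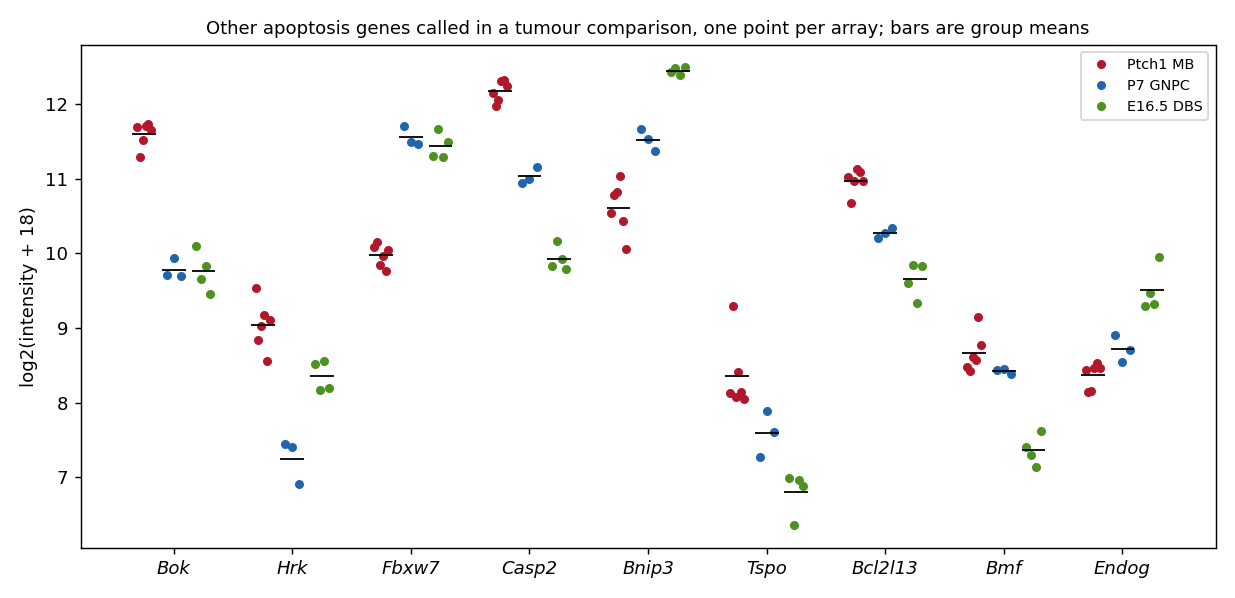
Log2(intensity + 18) on each array (points) of the 9 further apoptosis genes called in a tumour comparison, for tumours, GNPC and DBS side by side, with group means as bars. Bok lies between 2486.7 and 3382.9 in intensity in the 6 tumours, above all 7 normal samples, and Fbxw7 lies between 854.0 and 1117.8, below them all.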

How the data were processed

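The deposited values are linear intensities per probe set, 1 array per sample. Per the submitters' processing notes MAS5 was used, with no role or version given; per the labels' protocols, labelled RNA came from the manufacturer's 2-cycle amplification. In the deposited table every array has a mean of 500 after trimming 2% at each end, so the intensities carry the authors' global scaling with no log or quantile step. Array medians run from 91.4 to 117.7.

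Samples were grouped by the source name in the labels, and their numbers are in accession order. Symbols came from the platform annotation (34945 probe sets with 1 symbol, 932 with several, 9160 with none), and 0 changed when checked against a current gene table. No batch is named in the labels, so group and batch cannot be told apart. A Ctnnb1 tumour group of the series was not analysed here. No 2 arrays held identical values.

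Values were tested as log2(intensity + 18), 18 being the 20th percentile, for probe sets above their own array's median on at least 3 of 13 arrays. One limma 3.58.1 model (R 4.3.3; lmFit, and eBayes with trend, 10 residual and 4.8 prior degrees of freedom) held a mean for each group. On simulated normal noise with limma's moderated spreads, log2 changes of 1.5 and 2 were given to 100 probe sets each. They were recovered for 91% and 96% between tumours and GNPC (6 false calls among 25894 probe sets), 92% and 97% between tumours and DBS (4), and 88% and 95% between GNPC and DBS (4). In the data far more probe sets differed, 41.1% to 66.9% by adjusted p, so these rates do not carry over to them. Changes nearer the 2-fold limit were not simulated.

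Every member was to be named, those with a call in full, with the wider pathway's called genes (brightest probe set per gene, up to 12 per tumour comparison) and the 3 most similar probe sets for Bcl2, Bcl2l1 and Bax, the last of which gave none. Members and lists were chosen with earlier results of these data known. Alternatives covered pseudocount, filter, scaling, model and probe set choice, and leaving out each sample.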

Additional observations from a re-analysis of the deposited data

Results flagged for a closer look

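Single samples stood apart from the rest of their group in 7 of 58 groups of values examined (29 probe sets in tumours and in DBS), by a gap to the nearest sample that is large for the group's range. Chance would flag about 1 in 20 such groups if values were normal and groups independent. Linear intensities need not be normal, and probe sets of 1 gene share their samples. The number flagged can therefore not be set against that rate. Tumour 3 was highest for Bcl2l11 on 3 probe sets, at 8038.0 on 1456005_a_at (other tumours 3470.7 to 5175.2), 238.4 on 1456006_at (93.8 to 137.3) and 72.4 on 1426334_a_at (27.7 to 43.9). Tumour 2 was lowest for Bad on 1416583_at, at 294.6 (374.3 to 406.2), and highest for Bak1 on 1425716_s_at, at 12.9 (4.3 to 5.9). On the Bcl2l1 probe set 1426191_a_at, tumour 5 read 37.6 (4.1 to 12.4) and DBS 3 read 15.6 (2.7 to 4.6). The probe sets 1426334_a_at, 1425716_s_at and 1426191_a_at had not passed the filter on low values.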

How the results depend on the processing

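Of 1938 values of single probe sets and ratios recomputed under the alternatives, 1902 were counted as unchanged, which for single probe sets means the same side of the threshold. Of the others, 16 lost a call and 20 gained one, and 0 changed the sign of a called difference. Most of the single probe set differences were not called to begin with, and the ratios had no call. The 1902 therefore says little about how stable the calls are. Differences that were not called could change sign. That of Bad 1416582_a_at between tumours and GNPC ran from -0.30 to 0.12 when single samples were left out. No paired analysis was possible because the replicate numbers follow accession order only. Counts of called members (tumours against GNPC 1, tumours against DBS 7, GNPC against DBS 5) became 3, 14 and 9 with no fold minimum, and 0, 4 and 3 for probe sets above the median on all 13 arrays. A pseudocount of 64 left 0 between tumours and GNPC. The brightest probe set per gene gave 3 against DBS in tumours and 1 in GNPC, gene means gave 2 and 1, and scaling to the same median gave 3 in GNPC. Leaving out single samples gave 0 to 1, 7 to 8 and 4 to 5. The anti-apoptotic median between tumours and GNPC (-0.05) was 0.072 with the stricter filter, 0.19 at equal medians, -0.22 with the brightest probe sets, -0.27 with gene means and -0.16 without probe sets marked _x, _s or _a; the pro-apoptotic one (0.08) was 0.31 at equal medians and 0.34 with the brightest. Between tumours and DBS the anti-apoptotic median (-0.04) was -0.24 with no filter, 0.24 with the stricter filter, 0.085 at equal medians, -0.24 with the brightest and with gene means, and -0.34 without marked probe sets. The pro-apoptotic one (0.83) was 0.59 at pseudocount 64, 0.47 with no filter, 0.044 with the stricter filter, -0.081 with the brightest and -0.068 with gene means. Between GNPC and DBS the anti-apoptotic median (0.10) was -0.019 at equal medians and -0.067 without marked probe sets; the pro-apoptotic one (0.54) was 0.33 with no filter, 0.19 with the stricter filter, -0.16 with the brightest and 0.18 with gene means. Leaving out single samples gave medians of -0.12 to 0.00 and 0.00 to 0.15 between tumours and GNPC, -0.07 to 0.01 and 0.67 to 0.91 between tumours and DBS, and 0.07 to 0.13 and 0.28 to 0.64 between GNPC and DBS, the lowest being without DBS 2. Fewer probe sets per gene were counted in the brightest and mean settings; the cause of the other shifts was not tested. Of dim probe sets, such as those of Bak1, the arrays can show little.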
